A study of Mus musculus with 6 samples.

Results

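Chemokine receptors are 7-pass membrane proteins that guide T cells along gradients of small secreted proteins, the chemokines, and signal through G proteins of the Gi class. GPR183, also called EBI2, works in the same way but follows oxysterols, oxidised forms of cholesterol that position lymphocytes within spleen and lymph node. The genes described here are Cxcr3, Cxcr4, Cxcr6, Ccr2, Ccr4, Ccr8, Ccr9, Cx3cr1 and Gpr183, 9 of the 49671 genes in the count table. They were taken by gene symbol, each of which matched 1 Ensembl identifier. In T cells, CXCR3 and CXCR6 are known as receptors of effector cells that enter inflamed tissue, CCR2 and CX3CR1 as receptors found on effector and memory cells, and CXCR4 as the receptor for CXCL12 of bone marrow and lymphoid stroma.

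RNA of mouse CD8 T cells from OT-I animals was counted in 6 libraries. OT-I cells carry a T cell receptor transgene specific for SIINFEKL, a peptide of ovalbumin. Of these libraries 3 are labelled CD73 KO and 3 WT. Nt5e encodes CD73, an enzyme on the cell surface that converts AMP to adenosine. Cells of both genotypes came from spleen and received the peptide at 10 ng/mL daily for 5 days with IL-7 and IL-15, each at 5 ng/mL. The replating time was 48 hours for both, and live cells were sorted before RNA extraction. There was no unstimulated group, so every level below is a level under repeated stimulation, a culture set up to induce T cell exhaustion. The labels do not give the age or sex of the mice, the nature of the knockout allele, or whether libraries of the same genotype stem from different mice or cultures. P-values therefore measure the spread between these libraries, which may be technical.

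Totals ran from 6934150 to 19382950 counts. Nt5e had 69, 128 and 88 counts in CD73 KO and 290, 49 and 263 in WT, so the library labelled WT replicate 2 (5.22 CPM, the count scaled to library size with TMM factors) lay inside the range labelled CD73 KO, 3.67 to 8.47 CPM. On the first principal component (33.9% of the variance), WT replicates 1 and 2 stood at 22.3 and 24.0. WT replicate 3, at -6.18, lay beside CD73 KO replicate 3, at -6.92, and the other CD73 KO libraries were at -10.6 and -22.6. Every CD73 KO library thus lay below every WT library, but by a narrow margin. On the second component (29.4%), CD73 KO replicate 1 stood apart at 31.7 and WT replicate 3 on the other side at -21.4. The remaining libraries lay at -7.92 to 1.38. All 10 CD8 T cell markers were detected in every library, summing to 4785 to 5609 CPM. Of the 12 myeloid markers 6 were at 0 in all libraries, Lyz2, Csf1r and C1qa among them, and their sum was 8.83 to 13 CPM, nearly all Cd68. Of the 8 B cell markers 3 were at 0, including Ms4a1 and Pax5, and their sum was 0.639 to 2.55 CPM. The 7 NK cell markers summed to 34.6, 19.3 and 25.1 CPM in CD73 KO and 46.0, 53.9 and 16.2 CPM in WT, most of it Eomes, which CD8 T cells also express, and Klre1. The 6 markers of CD4 and regulatory T cells summed to 362 to 615 CPM, mostly Il2ra, which activated CD8 T cells also express, with Ikzf2 and Zbtb7b next, while Cd4 had 0 to 5 counts and Foxp3 0 to 2. Trdc, the constant segment of the delta chain, had 571 to 2043 counts, and 7 of the 8 stromal and red cell markers were at 0. Of the 8 dendritic cell markers 3 were at 0, and the sum of 72.1 to 136 CPM was mostly Bst2, which activated lymphocytes also express.

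Cxcr6 and Cxcr3 were the most abundant of the 9 receptors. By their means Gpr183, Cxcr4 and Ccr2 followed, in an order that differed between libraries. Ccr4, Ccr8 and Cx3cr1 were low, and Ccr9 was not detected. Levels of the members are compared with each other as CPM per kb of annotated exon. Cxcr6 stood at 44.5 ± 10.4 in CD73 KO and 52.4 ± 9.71 in WT (SD, n = 3), and Cxcr3 at 23.2 ± 6.70 and 23.3 ± 7.88 (SD, n = 3). Cxcr6 lay above Cxcr3, and Cxcr3 above Gpr183, in 6 of 6 libraries. Gpr183 had 9.90 ± 2.17 CPM per kb in CD73 KO and 6.46 ± 1.16 in WT, and Cxcr4 had 7.89 ± 3.23 and 3.68 ± 1.66 (SD, n = 3). Ccr2 had 2.62 ± 2.48 and 5.69 ± 4.44 (SD, n = 3), and in WT replicates 1 and 2 it lay above both Gpr183 and Cxcr4. Below Cxcr3 the order was thus not settled. Gpr183 was above Cxcr4 in 5 of 6 libraries, Cxcr4 above Ccr2 in 4, Ccr2 above Ccr8 in 3, and Ccr8 above Ccr4 in 4. In CD73 KO replicates 2 and 3 and WT replicate 3, Ccr2 lay below both Ccr4 and Ccr8. Ccr4 was above Cx3cr1 in 6 of 6. Of the level per kb summed over the members, Cxcr6 took 37.5% to 56.2% of a library and Cxcr3 17.7% to 32.1%. In bulk RNA, fewer cells with a transcript and less of it per cell cannot be told apart. Exon lengths count every annotated transcript. For Ccr2 that is 6760 bases, against 5728 in its longest coding transcript, with which its mean over the libraries would be 4.90 in place of 4.16 CPM per kb.

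**Figure D1:**
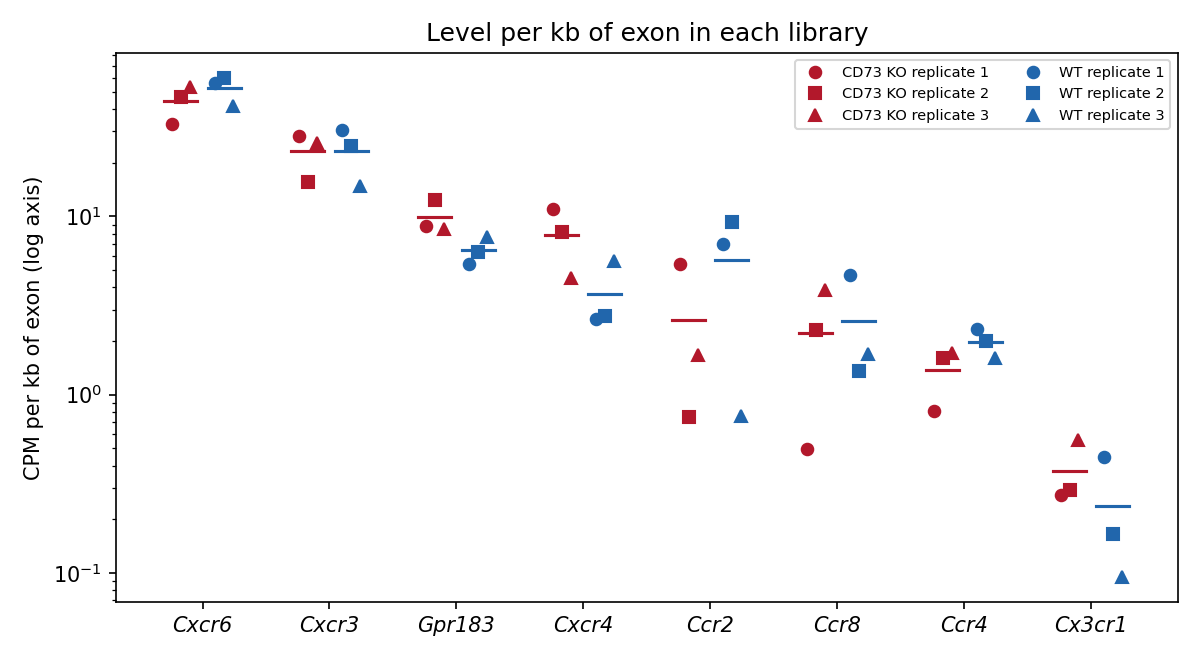
Level of the 8 detected receptors in each library, in CPM per kb of exon on a log axis, with genes in order of their mean. Red points are CD73 KO, blue points WT, marker shape gives the replicate number and short lines are group means. Cxcr6 and Cxcr3 lie above the other receptors in every library, and the points of Ccr2 span 0.752 to 9.36.

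None of the 8 receptors that could be tested passed the genotype test (0 of 8 at an adjusted p under 0.05, edgeR's quasi-likelihood test, against 0.0572% of all 12242 tested genes, 0.0408% higher and 0.0163% lower in CD73 KO). Cxcr4 and Gpr183 had the highest estimates on the CD73 KO side and were the members with an unadjusted p under 0.05, 2 of 8, both higher in CD73 KO. Of all tested genes 9.64% had such a p, 5.75% higher and 3.89% lower. Groups did not overlap for 1 of 8 members and for 15.2% of all tested genes. Of the 8, 3 had a log2 fold change above 0 and 5 below, with a median of -0.13, against 52.3% above 0 and a median of 0.01 over all tested genes. Members that passed the filter on low counts are not all members, since Ccr9 did not. By the same test Nt5e, the gene of CD73, did not pass either (log2 fold change -1.67 ± 0.72, SE, adjusted p = 0.534).

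Cxcr6 (ENSMUSG00000048521, chromosome 9, 123806475 to 123811760, mm10) encodes the receptor for CXCL16. It had 1202, 1375 and 1072 counts in CD73 KO and 1388, 1084 and 561 in WT, that is 63.9, 90.8 and 103 CPM against 108, 115 and 79.9 CPM. CD73 KO replicate 1 was lowest, and the groups overlapped through WT replicate 3. The log2 fold change, CD73 KO against WT, was -0.24 ± 0.19 (SE; 95% interval -0.67 to 0.19, adjusted p = 0.70). With the ratio of highest to lowest library at 1.81, Cxcr6 varied least of the members by that measure.

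Cxcr3 (ENSMUSG00000050232, chromosome X, 101731535 to 101734269) encodes the receptor for CXCL9, CXCL10 and CXCL11. Its counts were 921, 410 and 463 in CD73 KO and 676, 401 and 180 in WT, or 49.0, 27.1 and 44.6 CPM against 52.6, 42.7 and 25.6 CPM. Each genotype held a low library, CD73 KO replicate 2 and WT replicate 3. Genotypes differed by a log2 fold change of -0.02 ± 0.30 (SE; 95% interval -0.70 to 0.67, adjusted p = 0.991), and its sign changed with the libraries used, from -0.25 without WT replicate 3 to 0.23 without WT replicate 1.

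Cxcr4 (ENSMUSG00000045382, chromosome 1, 128588199 to 128592293) had 373, 224 and 85 counts in CD73 KO and 62, 47 and 71 in WT. Levels were 19.8, 14.8 and 8.18 CPM in CD73 KO and 4.82, 5.01 and 10.1 CPM in WT. WT replicate 3 lay above CD73 KO replicate 3, so the groups overlapped. The means were 14.3 ± 5.85 and 6.65 ± 3.0 CPM (SD, n = 3), and the log2 fold change of 1.15 ± 0.38 (SE; 95% interval 0.29 to 2.01) had an unadjusted p of 0.0146 and did not pass the test (adjusted p = 0.405). Leaving out a library at a time gave 0.83 (no CD73 KO replicate 1) to 1.55 (no WT replicate 3).

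Gpr183 (ENSMUSG00000051212, chromosome 14, 121952551 to 121965195) lies within the Ubac2 gene on the opposite strand, with no exonic overlap. It had 477, 542 and 255 counts in CD73 KO and 200, 171 and 156 in WT. Levels were 25.4, 35.8 and 24.5 CPM in CD73 KO and 15.6, 18.2 and 22.2 CPM in WT. Every CD73 KO library was above every WT library, as in 7.59% of all tested genes. Gpr183 alone among the members had groups that did not overlap. The means were 28.6 ± 6.26 and 18.7 ± 3.35 CPM (SD, n = 3). On the log2 scale CD73 KO exceeded WT by 0.63 ± 0.19 (SE; 95% interval 0.20 to 1.05), with an unadjusted p of 0.00792 and an adjusted p of 0.368. Without single libraries it ran from 0.43 (CD73 KO replicate 2) to 0.76 (WT replicate 3).

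**Figure D2:**
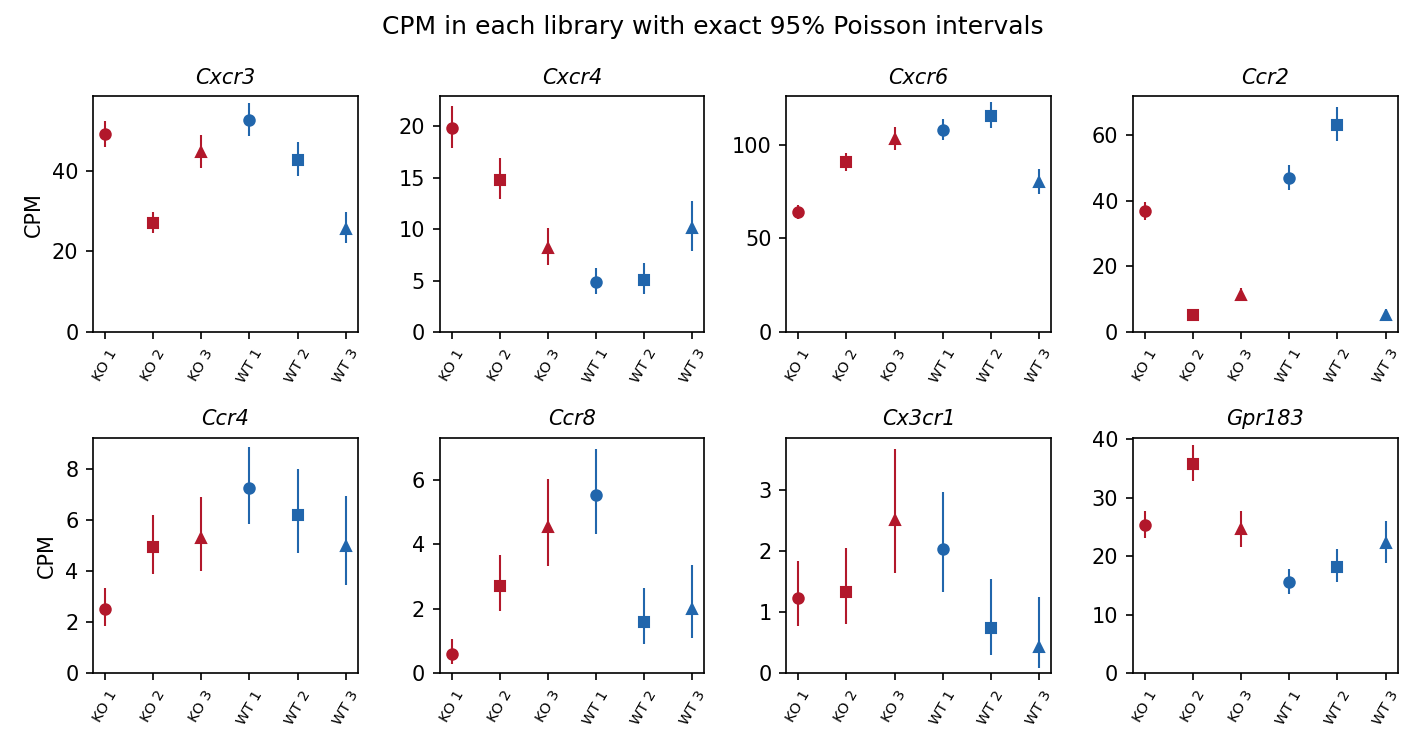
CPM of the 8 detected receptors in each library, 1 panel per gene with its own axis from 0. Red points are CD73 KO, blue points WT and bars exact 95% Poisson intervals, which cover counting error only. Gpr183 is higher in each CD73 KO library than in each WT library, while every other panel shows overlap.

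The DNA just before the start of Cxcr6, Cxcr4 and Gpr183 is printed because these are the most abundant member and the pair with the highest estimates on the CD73 KO side. Sequences are from RefSeq (GRCm38.p6), 5′ to 3′ on the strand of the gene, and end before the first annotated exon. They are chr9:123806227-123806474 on the plus strand for Cxcr6, chr1:128592300-128592549 on the minus strand for Cxcr4 and chr14:121965196-121965443 on the minus strand for Gpr183. Capitals mark matches to the motifs named below.
Cxcr6: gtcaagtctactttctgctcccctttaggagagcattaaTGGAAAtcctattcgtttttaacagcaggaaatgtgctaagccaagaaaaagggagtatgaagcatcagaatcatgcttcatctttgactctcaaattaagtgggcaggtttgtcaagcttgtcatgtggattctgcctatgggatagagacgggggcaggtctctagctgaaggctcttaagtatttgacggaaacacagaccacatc
Cxcr4: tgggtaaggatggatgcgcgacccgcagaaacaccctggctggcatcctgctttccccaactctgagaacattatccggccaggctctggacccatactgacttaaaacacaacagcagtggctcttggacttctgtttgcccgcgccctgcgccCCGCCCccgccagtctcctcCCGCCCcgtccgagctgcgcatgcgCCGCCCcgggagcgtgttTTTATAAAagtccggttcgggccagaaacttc
Gpr183: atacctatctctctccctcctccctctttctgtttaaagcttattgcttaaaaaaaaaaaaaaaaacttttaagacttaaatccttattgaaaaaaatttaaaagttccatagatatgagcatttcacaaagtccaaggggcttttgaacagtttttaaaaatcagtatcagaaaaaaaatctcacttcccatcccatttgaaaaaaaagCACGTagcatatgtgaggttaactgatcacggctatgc

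The 3 upstream sequences differ in composition. The 250 bases before the RefSeq start were 61.2% G or C with 19 CG dinucleotides at Cxcr4, 43.6% with 3 at Cxcr6 and 32.0% with 2 at Gpr183, against medians of 52.4% and 6 over 32817 promoter windows of the same length. A lower G and C content than that of Gpr183 was found in 2.38% of windows. All 9 members had an entry, and 8 motifs were searched on both strands. The Cxcr4 window held the GC box GGGCGG at 3 places, all in the reverse sense, and the TATA box core TATAAA, whose matches on the 2 strands overlap and end 25 bases before the start. Cxcr4 was the member with either, while 32.7% and 12.4% of all windows hold them. The hypoxia response core ACGTG matched in Gpr183 (16.6% of all windows), and the NFAT core with its flank, TGGAAA, in Cxcr6 and Ccr2 (18.6%). The Ccr2 match lies inside the annotated gene, since only the first 17 bases of that window come before an annotated exon. For Cx3cr1 that number is 0, so its window starts inside the annotated gene. The windows of Ccr4 and Ccr9 also lie inside the annotated span of the gene. The T-box core TCACACC, the cAMP response element TGACGTCA, the FOXO site GTAAACA and the interferon-stimulated response element had no match in these windows of the members, and are in 3.33%, 1.55%, 3.16% and 2.97% of all windows. These matches are descriptions of letters and were not tied to the counts.

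Ccr2 (ENSMUSG00000049103, chromosome 9, 124101950 to 124113557), the receptor for CCL2, varied most between libraries, and the split did not follow genotype. It had 691, 77 and 117 counts in CD73 KO and 605, 594 and 36 in WT. Levels were 36.8, 5.08 and 11.3 CPM in CD73 KO and 47.0, 63.3 and 5.13 CPM in WT. CD73 KO replicate 1 and WT replicates 1 and 2 were high, the other 3 libraries were low, and the highest was 12.4 times the lowest. The log2 fold change was -1.11 ± 1.00 (SE; 95% interval -3.57 to 1.34, adjusted p = 0.753). It was -2.30 when CD73 KO replicate 1 was left out and -0.58 when WT replicate 2 was.

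The pooled SD of log2 (CPM + 0.5) within genotypes was 1.67 for Ccr2, and 99.97% of the 9849 genes with a mean of at least 5 CPM had a smaller one, with a median of 0.17 over those genes. For the other members with that mean it was 0.27 (Gpr183), 0.32 (Cxcr6), 0.41 (Ccr4), 0.49 (Cxcr3) and 0.59 (Cxcr4), which exceeded 82.3% to 98.2% of genes. The 6 members in this range thus all varied more within genotypes than most genes, by amounts that include counting error, which is larger for genes of fewer counts.

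Transcripts of this receptor family share similar stretches, where reads may be assigned to another gene or dropped, so the level of Ccr2 is uncertain to that extent, and this was not tested. Eomes, a T-box transcription factor of effector and memory CD8 T cells, had 15.1, 1.39 and 6.74 CPM in CD73 KO and 30.1, 34.5 and 2.56 CPM in WT. Ccr7, the receptor that takes T cells into lymph nodes, ran the other way, with 61.5, 135 and 114 CPM in CD73 KO and 43.2, 39.1 and 103 CPM in WT. The lowest 3 values of Ccr7 were in the 3 libraries where Ccr2 was highest. Tbx21, another T-box factor gene, did not run with Eomes. It had 19.0, 44.7 and 50.2 CPM in CD73 KO and 30.3, 29.6 and 42.6 CPM in WT. Its lowest 3 values too were in the 3 libraries where Ccr2 was highest. Eomes and Tbx21 were named here after their values were seen.

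**Figure D3:**
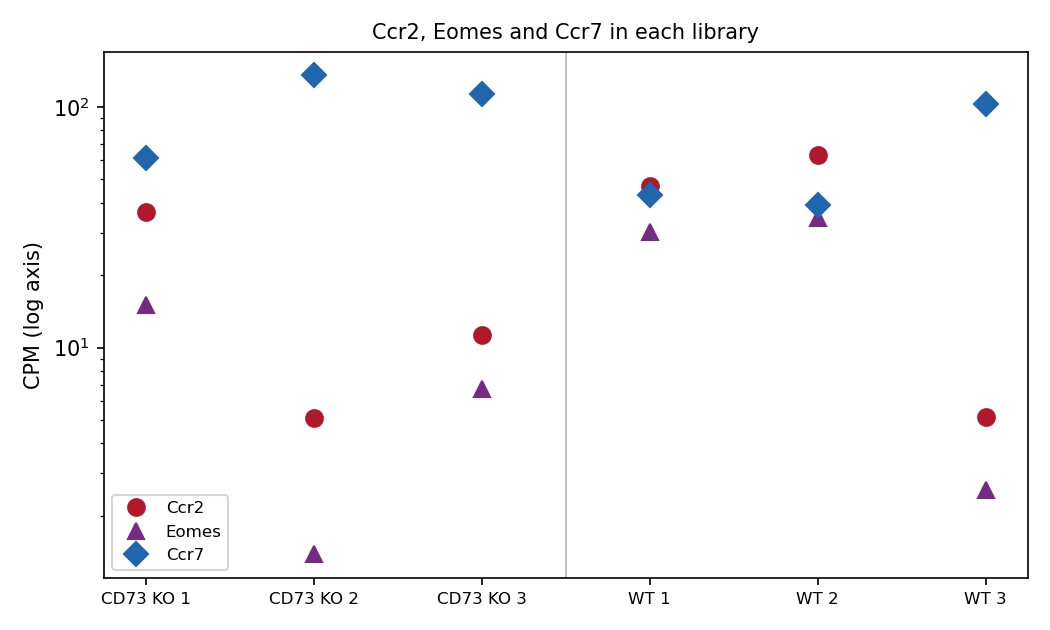
CPM of Ccr2, Eomes and Ccr7 in each library on a log axis, with a vertical line between CD73 KO and WT. Ccr2 and Eomes are highest in CD73 KO replicate 1 and WT replicates 1 and 2, where Ccr7 is lowest.

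Ccr4 (ENSMUSG00000047898, chromosome 9, 114490316 to 114504916), the receptor for CCL17 and CCL22, was low, with 47, 75 and 55 counts in CD73 KO and 93, 58 and 35 in WT. Levels were 2.5, 4.95 and 5.29 CPM against 7.23, 6.18 and 4.98 CPM. Here CD73 KO replicate 1 was lowest and CD73 KO replicate 3 lay above WT replicate 3. The log2 fold change was -0.56 ± 0.31 (SE; 95% interval -1.24 to 0.12, adjusted p = 0.583).

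Ccr8 (ENSMUSG00000042262, chromosome 9, 120092114 to 120094906), the receptor for CCL1, had 11, 41 and 47 counts in CD73 KO and 71, 15 and 14 in WT. Its levels of 0.585 CPM in CD73 KO replicate 1 (95% interval 0.292 to 1.05) and 5.52 CPM in WT replicate 1 (4.31 to 6.96) differed by more than counting error. The remaining libraries had 2.71 and 4.52 CPM in CD73 KO and 1.60 and 1.99 CPM in WT, so the groups overlapped widely. CD73 KO against WT gave a log2 fold change of -0.34 ± 0.73 (SE; 95% interval -2.04 to 1.36, adjusted p = 0.90), which turned to 0.16 when CD73 KO replicate 1 was left out and to 0.48 for WT replicate 1.

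Cx3cr1 (ENSMUSG00000052336, chromosome 9, 119901616 to 120069879), the receptor for fractalkine, was the lowest of the detected members. It had 23, 20 and 26 counts in CD73 KO and 26, 7 and 3 in WT. Levels were 1.22, 1.32 and 2.5 CPM against 2.02, 0.746 and 0.427 CPM, the last with a 95% interval of 0.0881 to 1.25 CPM. The log2 fold change of 0.49 ± 0.52 (SE; 95% interval -0.65 to 1.64, adjusted p = 0.782) was 1.42 when WT replicate 1 was left out and 0.14 when CD73 KO replicate 3 was.

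Ccr9 (ENSMUSG00000029530, chromosome 9, 123678439 to 123784330), the gut-homing receptor for CCL25, had 0 counts in all 6 libraries. The exact 95% interval of a count of 0 reaches 0.196 to 0.525 CPM depending on the library. In this table a 0 is not always an absence of RNA, since the 37 mitochondrially encoded genes, some of which all cells use, were also at 0 in every library. Of the annotated exons of Ccr9, 18.8% overlap a transcript on the opposite strand, where the counting may leave reads unassigned.

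Of the 9 members 6 lie on chromosome 9, which also carries Nt5e, at 26.1 Mb (Ccr4) to 35.7 Mb (Ccr2) from that gene. Cxcr3, Cxcr4 and Gpr183 lie on other chromosomes.

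**Figure D4:**
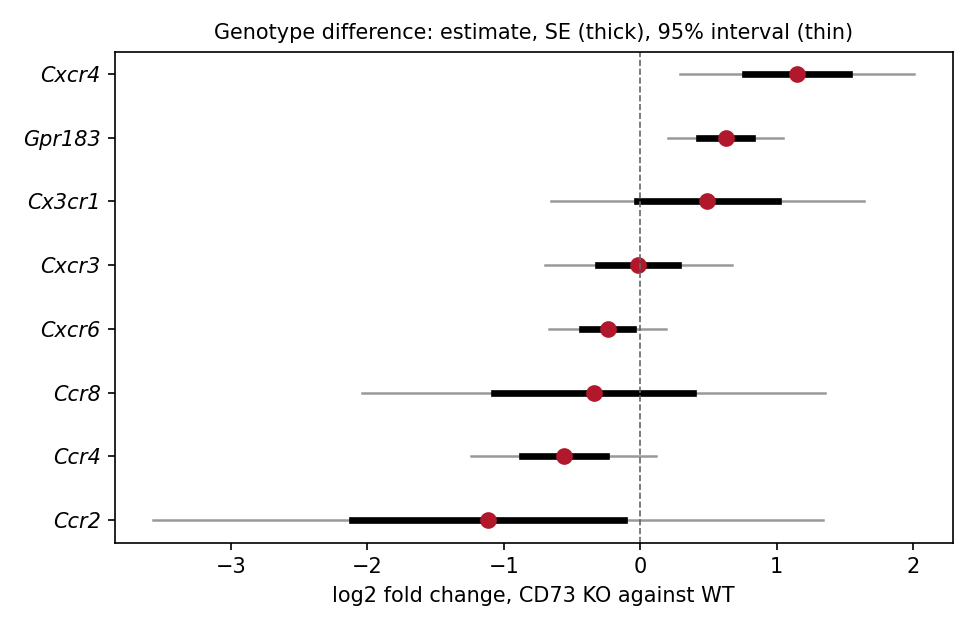
Log2 fold change of the 8 tested receptors, CD73 KO against WT, with the SE as a thick bar and the 95% interval as a thin one, before any adjustment for multiple tests. The intervals of Cxcr4 and Gpr183 lie above 0 and those of the other 6 include it, and no member passed the adjusted test.

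The genes whose profile over the 6 libraries was most like that of each member were found by Pearson's r of log2 (CPM + 0.5) among 9149 protein-coding genes with a mean of at least 5 CPM. The nearest were Gnpda1 and Dpagt1 for Cxcr6 (r = 0.99 and 0.98), Cgrrf1 and Exosc10 for Cxcr3 (0.99 and 0.99), Gstp3 and Zfp654 for Cxcr4 (0.99 and 0.99), Zfp935 and Tmem260 for Gpr183 (0.98 and 0.98), Sytl2 and Coq10b for Ccr2 (0.99 and 0.99) and Ncbp1 and Sephs2 for Ccr4 (0.99 and 0.99). With so few libraries such values are common. Between 65 (Cxcr6) and 213 (Ccr2) genes reached an r of 0.9. Sytl2 had 51.6, 19.9 and 26.7 CPM in CD73 KO and 62.7, 73.9 and 22.4 CPM in WT, with the same 3 high libraries as Ccr2.

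Among the other chemokine receptors, Ccr7 was the most abundant and none passed the test. Of 11 such genes 3 were tested, and 5 had under 3 counts in every library, Xcr1 and Cxcr1 at 0. The log2 fold change was 0.76 ± 0.47 for Ccr7 (SE, adjusted p = 0.647). Without WT replicate 3 that of Ccr7 was 1.33. Ccr6, which CCL20 binds, had 15.8 CPM in CD73 KO replicate 2 and 1.97 to 7.97 CPM elsewhere. Of the 5 atypical receptors, which bind chemokines without the usual signal, Ccrl2 was tested and had a log2 fold change of 0.76 ± 0.35 (SE, adjusted p = 0.520). Its level of 22.9 CPM in CD73 KO replicate 1 stood against 7.55 to 10.4 CPM elsewhere.

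Of the other trafficking receptors coupled to G proteins, 11 of 18 were tested and 0 passed, with 9 log2 fold changes above 0 and 2 below. P2ry10, at 79.4 ± 19.6 CPM in CD73 KO and 75.5 ± 6.82 in WT, and S1pr4, at 54.0 ± 7.95 and 49.7 ± 2.37 (SD, n = 3), were the most abundant. S1pr1, the receptor for sphingosine-1-phosphate that lets T cells leave lymphoid organs, had 17.1 ± 11.0 and 8.69 ± 3.51 CPM (SD, n = 3; log2 fold change 1.02 ± 0.51, adjusted p = 0.572). Gpr55 had 4.39 ± 1.23 and 7.87 ± 4.73 CPM (SD, n = 3; adjusted p = 0.535).

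Of 28 chemokine genes 13 were at 0 in every library, among them Cxcl9, Cxcl12, Ccl2 and Ccl17, and 0 of the 7 tested passed. Among ligands of the members, Ccl25 had 31 to 79 counts, Cxcl10 had 5 to 102, Ccl1 had 3 to 41 and Cxcl16 had 3 to 9. Xcl1, which attracts cross-presenting dendritic cells, was the most abundant at 291 ± 182 CPM in CD73 KO and 252 ± 88.1 in WT, followed by Ccl3 at 49.7 ± 15.2 and 42.9 ± 10.1 CPM (SD, n = 3). Ccl5 had 24.5 ± 18.5 and 40.8 ± 35.3 CPM (SD, n = 3; log2 fold change -0.72 ± 0.77, adjusted p = 0.791). The 4 enzymes that make or break down the oxysterol ligands of GPR183 were too low to test. Ch25h had 0 or 1 counts and Cyp7b1 0.

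Levels of G protein subunits, receptor kinases and arrestins ranged widely, and 0 passed. In this list 16 were tested, 6 above 0 and 10 below, with a median log2 fold change of -0.04. Gnai2, a subunit of the Gi class, stood at 685 ± 57.4 CPM in CD73 KO and 715 ± 93.7 in WT (SD, n = 3), while Gnai1 was at 0 and Grk3 had 0 to 2 counts. Gnas, the Gs subunit, stood at 1086 ± 114 and 1103 ± 24.3 CPM and Grk2, a kinase that switches receptors off, at 734 ± 44.8 and 753 ± 19.3 CPM (SD, n = 3). Gnb1, a beta subunit, was lower in each CD73 KO library, 464 ± 13.5 against 529 ± 22.3 CPM (SD, n = 3; adjusted p = 0.544), and Gna13 had a log2 fold change of 0.21 ± 0.13 (SE, adjusted p = 0.643). Groups did not overlap in that direction in 7.6% of all tested genes.

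RGS proteins speed the shut-off of G proteins. Of 16 genes 11 were tested, 9 with a log2 fold change above 0 and 2 below, a median of 0.28, and 2 had an unadjusted p under 0.05, both higher, against 5.75% of all tested genes. These were Rgs10, at 77.1 ± 2.96 CPM in CD73 KO and 51.0 ± 13.6 in WT (SD, n = 3; log2 fold change 0.59 ± 0.18, adjusted p = 0.361), and Rgs12, at 6.92 ± 0.447 and 4.64 ± 0.836 (SD, n = 3; adjusted p = 0.482). Rgs3, Rgs19 and Rgs10 had the highest mean CPM. CPM is not scaled to exon length, so it does not rank these genes by level. By CPM, Rgs10 lay above Rgs19 in all 3 CD73 KO libraries and below it in all 3 WT libraries. Rgs3 and Rgs19 had log2 fold changes of 0.32 ± 0.16 and -0.13 ± 0.12 (SE).

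Of 30 genes of the migration machinery, all were tested, 15 with a log2 fold change above 0 and 15 below, with a median of 0.00. Coro1a, which binds actin, stood at 1477 ± 253 CPM in CD73 KO and 1516 ± 69.8 in WT, and Msn, which links actin to the membrane, at 1161 ± 209 and 1110 ± 170 (SD, n = 3). Plcb2, a phospholipase activated by G proteins, had the smallest p, with a log2 fold change of 0.41 ± 0.14 (SE, unadjusted p = 0.0139, adjusted p = 0.404), and Pik3r6, a regulatory subunit of PI3K gamma, had -0.93 ± 0.47 (SE, adjusted p = 0.559).

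Among transcription factors known for acting on trafficking receptors or on the T cell states that carry them, 24 of 25 were tested and 0 passed, with 17 above 0 and 7 below and a median of 0.18 (1 passed when WT replicate 1 was left out). At an unadjusted p under 0.05 there were 5 of 24, all higher in CD73 KO, against 5.75% of all tested genes. Klf2, which drives S1pr1 and represses some inflammatory chemokine receptors, had 16.4 ± 9.36 CPM in CD73 KO and 6.07 ± 0.879 in WT (SD, n = 3; log2 fold change 1.46 ± 0.37, adjusted p = 0.326). Tcf7, a factor of stem-like T cells, had a log2 fold change of 0.77 ± 0.20 (SE, adjusted p = 0.319). Hif1a and Bhlhe40 were the most abundant, with 0.25 ± 0.13 and 0.22 ± 0.33 (SE). Tbx21, which encodes T-bet, an activator of Cxcr3, had 37.9 ± 16.6 and 34.1 ± 7.30 CPM (SD, n = 3; adjusted p = 0.909).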

How the data were processed

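The authors deposited a table of raw read counts with mouse Ensembl gene identifiers as rows and the 6 libraries as columns. Per the submitters' processing notes, fastp, HISAT2 and featureCounts were used with the mm10 build. The sources used here give no versions, annotation release or strand setting, so reads of overlapping genes on opposite strands may not be told apart. Symbols were found for 49326 of 49671 identifiers.

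The filterByExpr function of edgeR 4.0.16 removed low genes (minimum count 10, minimum total 15) and left 12242. Genotypes were compared in R 4.3.3 with edgeR's quasi-likelihood test (TMM factors, robust estimates, legacy fit), with Benjamini-Hochberg adjustment across the 12242 genes and a threshold of 0.05. The SE is the log2 fold change divided by the square root of F. A count of 3 was taken as the floor. Coordinates, exon lengths and transcripts came from GENCODE M21 (GRCm38), and transcripts were matched with blastn 2.17.0. On simulated data of 12102 genes, 25.4%, 77.6% and 95.5% of genes changed 1.5-fold, 2-fold and 4-fold were recovered, and 5.71% of calls were false. In this simulation the changed genes were picked at random and counts were drawn independently for each library. The rates need not hold for the members, since those with a mean of at least 5 CPM varied more within genotypes than most genes.

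Members and lists were chosen with earlier results of these data known. Of each other list, the 2 genes of highest mean CPM and the 2 of smallest p were named. There, the most abundant genes are those of highest CPM, not scaled to exon length. Other genes were named after their values were seen, and 1 result is not reported here. Alternatives were RLE factors, library size alone, no filter, 1 CPM in 3 libraries, no robust estimation, thinning to 6934150 counts, DESeq2 1.42.0, limma-voom (limma 3.58.1), the replicate number as a block and each library left out.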

Additional observations from a re-analysis of the deposited data

How the results depend on the processing

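Over 15 alternatives, no member passed in 14. Without a filter on low counts 2 passed edgeR's test, Cxcr4 (adjusted p = 0.000149) and Gpr183 (adjusted p = 0.0264). That fit called 298 of 21315 tested genes, against 7 of 12242. DESeq2 called 98 of 21314 tested genes and 0 members. Leaving out single libraries gave 4 to 8 genes, 0 members, and 1 or 2 members at an unadjusted p under 0.05. Of all tested genes, 4.48% (no WT replicate 2) to 14.0% (no CD73 KO replicate 3) had such a p. Cxcr4 lost that p without WT replicate 1 (0.0542, where Cx3cr1 gained it at 0.0305) and without WT replicate 2 (0.0571), by edgeR's quasi-likelihood test. Among the other lists, the transcription factors had 3 calls with no filter and 2 with DESeq2, and the atypical receptors, chemokines and RGS proteins 1 each with no filter, against 0. Directions held in every alternative for Cxcr4 (0.83 to 1.55), Gpr183 (0.43 to 0.76), Cxcr6 (-0.39 to -0.07), Ccr2 (-2.30 to -0.58), Ccr4 (-0.74 to -0.28) and Cx3cr1 (0.14 to 1.42, too low to test after thinning). Without single libraries Cxcr3 ran from -0.25 to 0.23 and Ccr8 from -0.97 to 0.48, so neither has a settled direction. Cxcr3 turned to 0.20 when CD73 KO replicate 2 was left out, to 0.23 for WT replicate 1 and to 0.02 for WT replicate 2. Ccr8 turned to 0.16 for CD73 KO replicate 1 and to 0.48 for WT replicate 1. The cause was not tested.

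With the replicate number as a block in edgeR's test, 5 genes and 0 members were called. Of the members 1, Gpr183, had an unadjusted p under 0.05, as did 10.0% of all tested genes, while Cxcr4 had 0.0650. Deviations of same-numbered libraries from their genotype means correlated at 0.233, -0.205 and 0.0877 for numbers 1, 2 and 3. Pairs of unlike number ran from -0.416 to 0.4. With deviations from means of 3 libraries, these values cannot show whether libraries of the same number belong together. Depth limits Cx3cr1, whose smallest count was 3.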

Other observations

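Some ligand and receptor genes were uneven between libraries of the same genotype. Cxcl10, a ligand of CXCR3 that cells make in response to interferon, had 102 counts in CD73 KO replicate 1 and 5 to 9 counts in each of the other 5 libraries. Ccl6 and Ccl9, chemokines known mostly from myeloid cells, each had 23 counts in WT replicate 2 and 0 to 4 elsewhere. In that library the myeloid markers Lyz2, Csf1r and C1qa were at 0, and Ly6g had 5 counts against 0 or 1 elsewhere. Cd68 was lower there than elsewhere, at 8.52 CPM. Itgax, a dendritic cell marker, had 3.2 CPM against 0.396 to 1.81. The other dendritic cell markers did not stand out there. Siglech, Flt3, Clec9a and Cd209a were at 0, and Zbtb46 had 0.426 CPM against 0.426 to 1.52. Batf3 and Bst2 lay within the range of the other libraries. The part of such cells in these counts was not tested. Gpr15, a receptor that takes T cells to the colon, had 4, 69 and 70 counts in CD73 KO and 13, 4 and 35 in WT, and did not pass the genotype test (edgeR, adjusted p = 0.847). Its CPM was lowest in CD73 KO replicate 1 and WT replicates 1 and 2, the libraries where Ccr2 was highest. Ccr10, a skin-homing receptor, had 42 counts in CD73 KO replicate 1 and 3 to 12 elsewhere. These genes were picked after their values were seen.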
